A study of Mus musculus with 14 samples.

Results

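Pou4f1, Pou4f2 and Pou4f3 make up the complete class IV POU family of the mouse, and they were found by symbol among the 31054 genes measured in all 14 libraries. All 3 members were present in every library's gene list, and no other row was counted as a member. The libraries hold single-cell 3' RNA counts of Atoh1-lineage cells sorted by tdTomato fluorescence. Control embryos were Atoh1Cre/+; Rosa lsl-tdTomato/+, so the controls also carry a Cre allele in place of a working Atoh1 copy. Mutant embryos were Atoh1Cre/S193A; Rosa lsl-tdTomato/+, in which the only other Atoh1 copy is the hypomorphic S193A allele. Whole hindbrains of C57BL/6J embryos were taken at E14.5 and at E18.5, 1 embryo per library, with 3 control and 3 mutant libraries at each stage. The pontine nuclei (PN) of control pups were dissected and pooled at P5 in 2 libraries, so no mutant was sampled there. Because the label is switched on by Atoh1Cre and stays on, the sort kept cells of the Atoh1 lineage whether or not they still expressed Atoh1.

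The POU4F proteins, also called BRN3A, BRN3B and BRN3C, are transcription factors with a POU-specific domain and a homeodomain that bind DNA together. Pou4f1 is known for its part in sensory ganglion neurons, the habenula and dorsal spinal interneurons. Pou4f2 is known for retinal ganglion cells, where it acts after Atoh7, and Pou4f3 for inner ear hair cells and Merkel cells, where it acts after Atoh1. Members of the family can stand in for each other in some neurons, and they often act beside LIM-homeodomain factors such as Isl1. Atoh1 is a basic helix-loop-helix factor of the rhombic lip, and such factors bind the E-box, written CANNTG.

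Pou4f1 (ENSMUSG00000048349) lies on the minus strand at chr14:104461676-104467999 in GRCm38, with 2 annotated transcripts of up to 3 exons. Pou4f2 (ENSMUSG00000031688) lies on the minus strand at chr8:78433010-78436645, with 1 transcript of 2 exons. Pou4f3 (ENSMUSG00000024497) has 2 annotated transcripts of up to 2 exons. The 250 bases upstream of the RefSeq start of Pou4f1 (chr14:104468000-104468249) and of Pou4f2 (chr8:78436648-78436897), from GRCm38.p6, are given here because Atoh1 and the factors that act with it read E-boxes. Each runs 5' to 3' on the gene's own strand, and capitals mark every CANNTG match.
Pou4f1: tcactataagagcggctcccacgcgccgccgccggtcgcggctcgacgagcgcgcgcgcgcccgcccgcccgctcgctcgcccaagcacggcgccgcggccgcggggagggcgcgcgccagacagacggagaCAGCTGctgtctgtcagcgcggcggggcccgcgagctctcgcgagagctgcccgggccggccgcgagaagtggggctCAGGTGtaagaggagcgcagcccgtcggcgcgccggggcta
Pou4f2: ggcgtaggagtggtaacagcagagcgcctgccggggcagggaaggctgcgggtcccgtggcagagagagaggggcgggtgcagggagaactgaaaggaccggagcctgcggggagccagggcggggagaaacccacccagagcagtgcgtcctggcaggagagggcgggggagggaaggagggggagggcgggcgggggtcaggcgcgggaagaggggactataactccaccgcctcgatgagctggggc
The Pou4f1 stretch held 2 matches, CAGCTG beginning at base -118 and CAGGTG beginning at base -41 from the start, and the Pou4f2 stretch held 0. CANNTG reads the same on both strands and does not overlap itself here. Across all 32851 RefSeq stretches of this length, 66.2% held at least 1 CANNTG and 13.0% held CAGCTG, so a match in such a window is common. The letters describe these windows only, and binding of Atoh1 was not measured.

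After filtering, 34425 cells were kept at E14.5, 31819 at E18.5 and 14006 at P5, with 3248 to 8726 cells per library and 108239001 to 236964126 UMIs (unique molecular identifiers, each a counted RNA molecule) per library before filtering. Any pair of libraries shared 13 to 67 cell barcodes of the 147273 distinct ones. Cells were clustered without the Pou4f genes, which gave 31 clusters at E14.5, 31 at E18.5 and 32 at P5. PN-like cells were named from Hox, Pax6 and Barhl1 markers, 7269 of them at E14.5 and 3258 at E18.5. Levels are counts-per-million (CPM), from UMIs summed over the cells of a library. In such sums, fewer expressing cells and less RNA per cell cannot be told apart. Atoh1 itself was at 55.0 to 136.6 CPM in E14.5 controls and 86.2 to 143.8 CPM in E14.5 mutants, and the point mutation cannot be seen in gene counts.

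The litter that gave replicate 2 at E14.5 stood apart. Litters were taken from the replicate number, and litter, exact embryo stage, dissection and preparation cannot be told apart in them. Litter 2 held 38.5% of all E14.5 cells but 100% of PN subcluster 15, 98.7% of PN subcluster 14, 98.4% of PN subcluster 5 and 96.1% of PN subcluster 7. Its mutant library had 0 cells in cluster 21 and in PN subclusters 1, 3, 10 and 12. Both of its libraries had the lowest Pou4f2 and the highest Pou4f1 of their genotype, so the E14.5 tests on all cells, PN states and clusters 4, 10, 21 and 22 were also run without this litter. Pooled shares of UMIs by cluster include it and are followed by their values without it.

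Over all cells kept, Pou4f1 fell from E14.5 to E18.5, Pou4f2 did not pass the test, and Pou4f3 was rare throughout. In the control libraries, Pou4f1 was at 30.8, 47.5 and 20.6 CPM at E14.5 and at 2.64, 2.66 and 3.55 CPM at E18.5. Every E14.5 control was above every E18.5 control, and the share of all genes that separate in this way between the stages was not counted. The log2 change from E14.5 to E18.5 was -3.56 (SE 0.31, adjusted p = 0.000251, edgeR quasi-likelihood test with Benjamini-Hochberg adjustment), and it was -3.18 without litter 2. This comparison called 7873 of 17247 genes (45.6%, past an adjusted p of 0.05 and an absolute log2 change of 0.25), so a call here is common, and 2 of the 3 members were called. Embryo hindbrains of different age hold different cells, and makeup and expression cannot be told apart in this comparison. E14.5 controls 1 and 2 were counted with Cell Ranger 3.1.0 and all E18.5 controls with 5.0.1. Software version thus also goes partly with stage, and its part was not tested.

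Pou4f2 was at 18.9, 7.25 and 15.4 CPM in E14.5 controls and at 8.87, 8.99 and 12.9 CPM in E18.5 controls. The ranges overlapped, and the log2 change of -0.51 (SE 0.32) did not pass (adjusted p = 0.226, edgeR). Without E14.5 control replicate 2 it was -0.81 and passed (adjusted p = 0.0126, edgeR). Pou4f2 was at 9.70 and 9.55 CPM in the P5 libraries, a different dissection that was not tested against the embryos.

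Pou4f3 was at 0.467, 1.16 and 2.06 CPM in E14.5 controls. At E18.5 it was at 0, 0.246 and 0 CPM in controls, from 0, 18 and 0 UMIs in the cells kept, of 10, 30 and 2 before the cells were filtered, and at P5 a single UMI was counted in 1 of the 2 libraries. The log2 change of -4.14 (SE 1.11, adjusted p = 0.0172, edgeR) rests on these few molecules. It no longer passed without E14.5 control replicate 3 (-3.53, adjusted p = 0.0605, edgeR) or with DESeq2 (-3.99, adjusted p = 0.127), which called 47.2% of genes. Pou4f1 was at 0.319 and 0.684 CPM at P5, again in the different dissection that was not tested against the embryos.

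**Figure D1:**
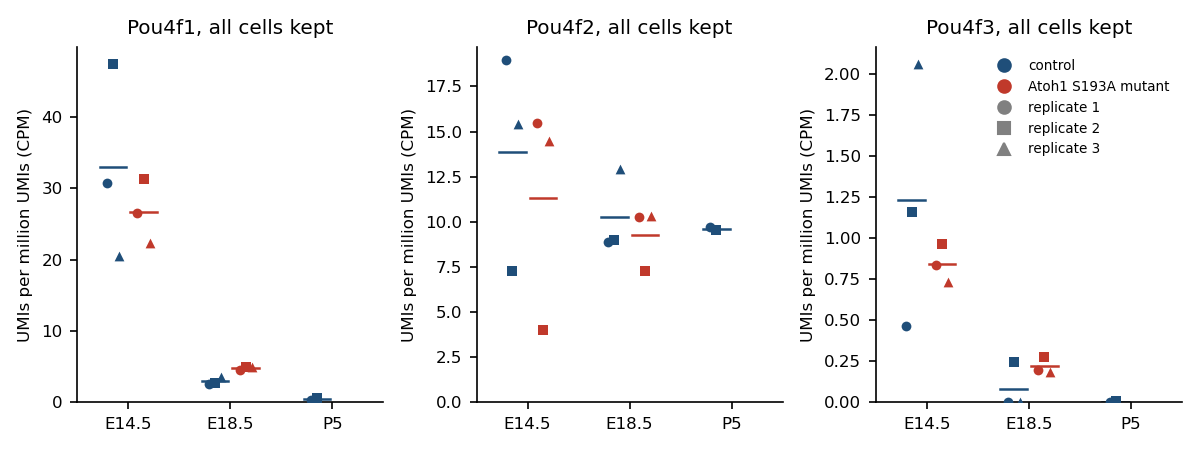
Level of each member in CPM over all cells kept, with 1 point per library, colour for genotype, shape for replicate number and a bar at each group mean. At E14.5 the 3 control libraries of Pou4f1 spread from 20.6 to 47.5 CPM, while all 6 E18.5 libraries lie at or under 5.01 CPM.

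The lists of related genes are given beside the 45.6% of all genes that were called between the stages, and nothing particular to the lists is read from the counts. Of 12 other POU genes, 10 were tested, 2 rose and 5 fell, with a median log2 change of -0.35 beside 0.00 over all genes tested. The class III gene Pou3f1 fell by 3.96 and Pou3f4 fell by 1.70 on the log2 scale, and Pou5f1 rose by 2.09. Of 18 partner and upstream factors, 16 were tested, 3 rose and 6 fell, with a median of 0.16. The proneural factors Neurog1 (-4.10) and Neurog2 (-3.57) and the LIM-homeodomain factors Lhx2 (-4.81) and Lhx9 (-3.35) had the changes of greatest size in that list. Of 30 genes reported elsewhere as POU4F targets, 28 were tested, 5 rose and 14 fell, with a median of -0.44. The sensory subtype factor Runx3 (2.96) and the neurotrophin Ntf3 (2.94) rose, and Irx6 (-3.97) and the neuropeptide gene Tac1 (-3.22) fell.

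Within the PN lineage at E14.5, the summed levels of Pou4f2 and Pou4f1 were highest in successive states. The PN-like cells fell into progenitors (1374 cells), intermediate progenitors (830), migrating neurons-1 (1627), migrating neurons-2 (1253) and differentiated neurons (2094), with 91 left unnamed. Pou4f2 in controls was nearly absent from progenitors (0, 2.89 and 1.34 CPM) and was present in intermediate progenitors (56.1, 47.5 and 60.0 CPM). It was highest in migrating neurons-1, at 150.1, 78.0 and 164.9 CPM. It was lower in migrating neurons-2 (64.8, 21.1 and 62.4 CPM) and in differentiated neurons (16.3, 5.15 and 26.1 CPM). Each control library by itself had its highest Pou4f2 in migrating neurons-1, and each had less in migrating neurons-2 and least, progenitors aside, in differentiated neurons.

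Pou4f1 came up later in the same sequence. In controls it was at 2.78, 6.20 and 3.34 CPM in progenitors, 12.5, 11.0 and 12.6 in intermediate progenitors and 23.4, 28.5 and 26.8 in migrating neurons-1. It reached 60.4, 68.1 and 55.9 CPM in migrating neurons-2 and was at 39.5, 46.1 and 25.0 CPM in differentiated neurons. The 5 states thus ranked alike in all 3 control libraries up to migrating neurons-2, while migrating neurons-1 and differentiated neurons overlapped. Pou4f3 did not exceed 0.272 CPM in any PN state of any library. These levels describe states that were named from other genes, and no test was made between states. PN subclusters 7 (414 cells, in migrating neurons-1), 8 (407) and 12 (319, both in differentiated neurons) had no gene of their state's marker list among their 10 leading genes. Without them Pou4f1 was at 19.4, 11.4 and 26.8 CPM in control migrating neurons-1 and at 59.5, 51.3 and 41.7 CPM in differentiated neurons, which then no longer overlapped. Pou4f2 was at 155.6, 92.4 and 166.6 CPM and at 14.7, 4.69 and 25.02 CPM in the same states. The order of the states given above held in each control library, but narrowly for Pou4f1 in 2 of them. In control 1, differentiated neurons were at 59.5 against 60.4 CPM in migrating neurons-2. In control 2, migrating neurons-1 were at 11.4 CPM, from 91 cells, against 11.0 CPM in intermediate progenitors.

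**Figure D2:**
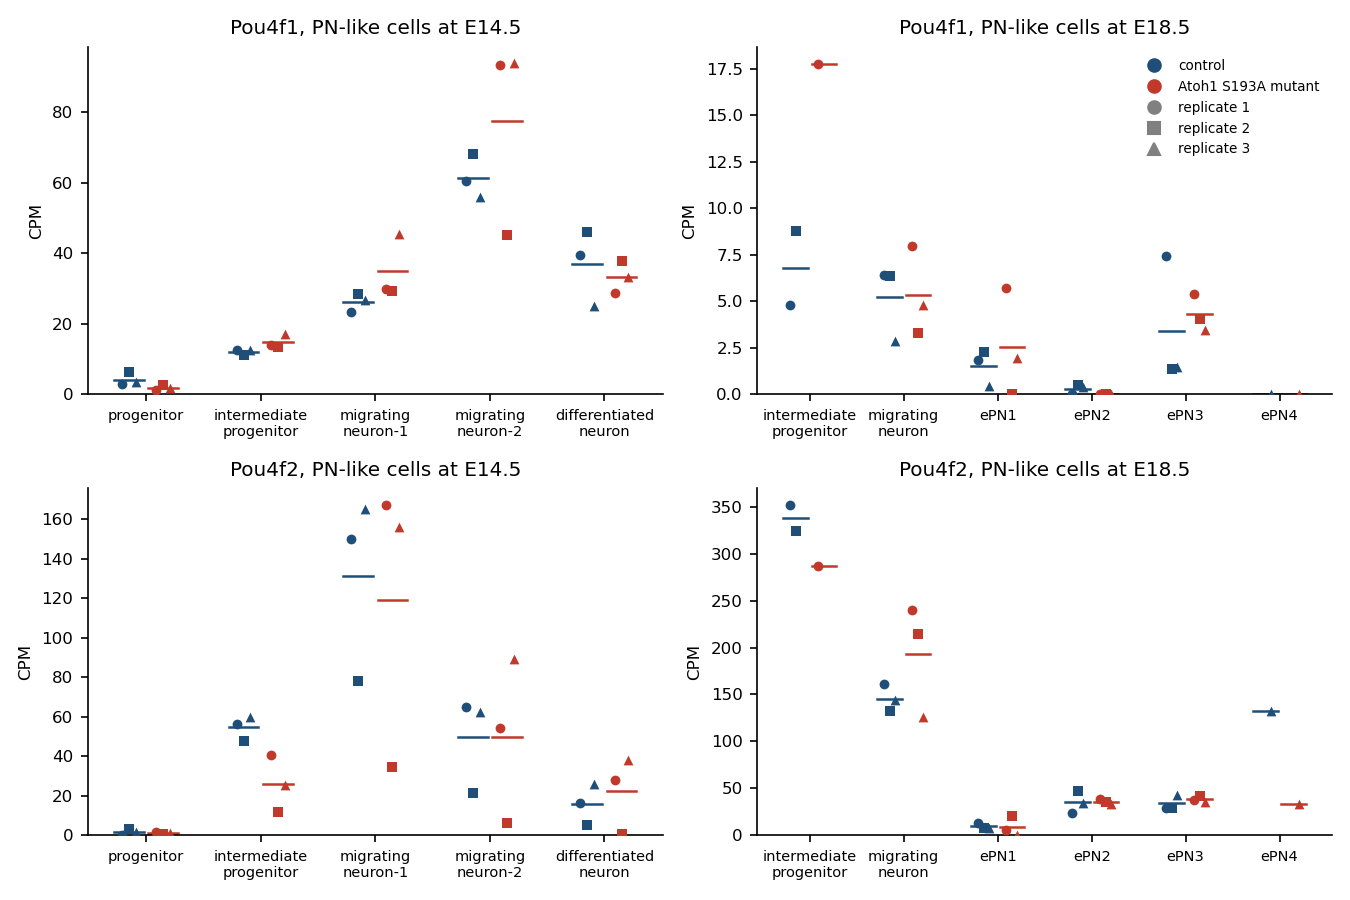
Pou4f1 (top) and Pou4f2 (bottom) in PN-like cell states at E14.5 (left) and E18.5 (right), in CPM, with 1 point per library holding at least 10 cells, colour for genotype, shape for replicate number and a bar at each group mean. Pou4f2 is highest in migrating neurons-1 and Pou4f1 in migrating neurons-2 in every E14.5 control library.

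Subclusters gave a finer picture. PN subcluster 0, a migrating neuron-1 group led by Atoh7, Pou4f2 and Hey1, had Pou4f2 at 214.8, 115.8 and 222.4 CPM in controls, with Pou4f1 at 16.1, 5.41 and 23.2 CPM. Atoh7 precedes Pou4f2 in retinal ganglion cells. PN subcluster 3, differentiated neurons led by Hoxa5 and Hoxb5, had the reverse emphasis, with Pou4f1 at 113.1, 157.1 and 81.9 CPM and Pou4f2 at 30.8, 24.5 and 56.3 CPM. Its Pou4f1 was above that of migrating neurons-2 as a whole in each control library. PN subcluster 10, differentiated neurons led by Kctd12 and Sncb, had Pou4f1 at 24.3 and 27.3 CPM in control replicates 1 and 3 and no Pou4f2 UMI in any library. Differentiated neurons were therefore mixed for both genes.

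Within the migrating neurons, Pou4f1 was found in a smaller share of Pou4f2-positive than of Pou4f2-negative cells in most libraries. After every cell was thinned to 5000 UMIs, 7.29%, 5.63% and 7.30% of Pou4f2-positive migrating neurons-1 in controls had a Pou4f1 UMI. Among Pou4f2-negative cells of the same libraries the shares were 11.0%, 15.3% and 12.04%. The same order held in the mutants, at 10.0% against 18.6%, 6.45% against 10.3% and 12.8% against 22.2%, so it was found in 6 of 6 libraries. In migrating neurons-2 the share was lower among Pou4f2-positive cells in 5 of 6 libraries, with mutant replicate 1 the exception (5 of 25 cells, against 18.1%). These shares rest on 2 to 17 double-positive cells per library in migrating neurons-1, each state joins several subclusters, and no test was made over cells. In differentiated neurons it was again lower in 5 of 6 libraries, on 0 to 4 double-positive cells each, and mutant replicate 2 had 1 Pou4f2-positive cell. In control intermediate progenitors the Pou4f1 share was higher among Pou4f2-positive cells in 3 of 3 libraries (8.70% against 4.67%, 14.3% against 4.48% and 25.0% against 2.60%), on 2 to 5 double-positive cells each. In the mutants it was lower in 3 of 3, on 1, 0 and 0 double-positive cells among 26, 5 and 13 Pou4f2-positive ones. No difference between genotypes is read from these counts. Over all E14.5 cells the Pou4f1 share was higher among Pou4f2-positive cells in 6 of 6 libraries.

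The median count in positive E14.5 cells was 2.0 UMIs for Pou4f1 and Pou4f2 and 1.0 for Pou4f3, and 57.9% of Pou4f2-positive cells had 2 or more. The highest count in a cell at E14.5 was 48 UMIs for Pou4f1, 31 for Pou4f2 and 23 for Pou4f3. Thinned to 5000 UMIs, 39.8%, 26.0% and 41.8% of control migrating neurons-1 had a Pou4f2 UMI, and 60.7%, 49.5% and 60.3% did before thinning. As the background, cluster 24, led by Ttr, Kcne2 and Folr1, had 0% Pou4f2-positive cells in all 6 thinned libraries, of 8 to 250 cells each, and for Pou4f1 it had at most 2.13%. Its libraries had median depths of 20661.5 to 29330.5 UMIs per cell against 15688.5 to 21088.0 in migrating neurons-1. The Pou4f2 share of migrating neurons-1 was thus above the background at lower depth.

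Between genotypes at E14.5, no member passed the test over all cells. Controls 1 and 2 of this stage were counted with Cell Ranger 3.1.0 and control 3 and the 3 mutants with 5.0.1, so the software version goes partly with genotype in every E14.5 comparison, and its part was not tested. Pou4f1 was at 26.6, 31.3 and 22.4 CPM in mutants against the control values above, a log2 change of -0.35 (SE 0.29, adjusted p = 0.664, edgeR), which was 0.30 (SE 0.23) with control 3 as the only control. Pou4f2 was at 15.5, 4.03 and 14.48 CPM in mutants (-0.33, SE 0.54, adjusted p = 0.846), and Pou4f3 at 0.837, 0.964 and 0.731 CPM (-0.62, SE 0.50, adjusted p = 0.656). The groups overlapped for all 3 members. This comparison called 0 of 17598 genes (0.0%) with edgeR, while 2095 genes had an unadjusted p under 0.05 and DESeq2 called 531 (3.02%). With the litter as a block, 2443 genes were called (13.9%), none of the 3 members among them (Pou4f2 adjusted p = 0.0935).

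In intermediate progenitors Pou4f2 was lower in the mutants without passing the test. The mutant values were 40.4, 11.7 and 25.1 CPM against 56.1, 47.5 and 60.0 CPM in controls, so every mutant was below every control, as 8.93% of genes were separated in one direction or the other in this state. The log2 change was -1.05 (SE 0.34, unadjusted p = 0.0108, adjusted p = 0.740, edgeR), in a comparison that called 5 of 9838 genes (0.0508%). It was -0.78 without litter 2 (adjusted p = 0.410), and the adjusted p was 0.0676 with the litter as a block. With no filter on low counts the change of -1.03 passed (adjusted p = 3.15e-05, edgeR), in a fit that called 148 of 17222 genes (0.859%). Thinned shares of Pou4f2-positive cells were 18.53% ± 1.82 in controls and 7.80% ± 3.80 in mutants (SD, n = 3 each, exact two-sided permutation test, p = 0.1, and 3 libraries against 3 cannot give a smaller one).

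Pou4f1 in the migrating neurons did not pass the test. In migrating neurons-2 the mutants had 93.5, 45.2 and 93.9 CPM against 60.4, 68.1 and 55.9 CPM in controls, with replicate 2 lower and replicates 1 and 3 higher than their littermates. The log2 change was 0.26 (SE 0.23, adjusted p = 0.999, edgeR) and 0.66 without litter 2 (adjusted p = 0.127). In migrating neurons-1 the mutants had 29.8, 29.2 and 45.5 CPM, all above the highest control (9.65% of genes did not overlap), with a log2 change of 0.39 (SE 0.19, adjusted p = 1.0, edgeR) and of 0.57 without litter 2 (adjusted p = 0.999). These 2 comparisons called 0 genes (0.0%) each with edgeR, of 11113 in migrating neurons-1 and 11033 in migrating neurons-2. Unadjusted, 427 and 300 genes were under 0.05, and DESeq2 called 15 (0.135%) and 3 (0.0272%).

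Pou4f2 in the later PN states did not pass the test between genotypes. In migrating neurons-1 the mutants had 167.3, 34.2 and 156.2 CPM (log2 change -0.16, SE 0.47), with the lowest value in each genotype from replicate 2. In migrating neurons-2 they had 54.0, 6.22 and 88.9 CPM (-0.02, SE 0.67), and in differentiated neurons 27.7, 0.496 and 38.1 CPM (0.52, SE 0.70). With the litter as a block the log2 changes were -0.31 (SE 0.18), -0.22 (SE 0.25) and 0.47 (SE 0.20), none past the threshold (adjusted p = 0.690, 0.873 and 0.496, edgeR). In progenitors Pou4f1 was at 1.09, 2.498 and 1.60 CPM in mutants, all below the lowest control (9.62% of genes did not overlap), with a log2 change of -1.38 (SE 0.47, adjusted p = 1.0, edgeR) and of -1.19 without litter 2. Only 56 of 1374 progenitors had a Pou4f1 UMI, 6 of them more than 1. The shares of positive cells were 5.88%, 10.4% and 6.67% in controls against 2.31%, 4.46% and 3.02% in mutants unthinned, and 2.99%, 4.72% and 1.47% against 1.18%, 1.61% and 0.877% thinned to 10000 UMIs. Thinned to 5000 UMIs they were 0%, 0.943% and 0% against 0.289%, 1.59% and 0.432%, with every mutant above its littermate, on at most 5 positive cells per library, and no direction is read from them. The progenitor comparison called 1 of 11504 genes (0.00869%), Barhl1, a homeobox gene of the Atoh1 lineage that is in the partner list (-2.29, adjusted p = 0.000258, edgeR).

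Most Pou4f1 of the E14.5 hindbrain lay outside the PN lineage. Of all E14.5 Pou4f1 UMIs, 35.0% came from cluster 4, which held 5.20% of the cells and was led by Foxb1, Hoxb5 and Ramp3. Another 17.8% came from cluster 21 (led by Hoxa7, Hoxc6 and Hoxb8) and 10.4% from cluster 22 (led by Tcf7l2, Dbx1 and Shox2). These shares varied between libraries, from 27.2% to 51.5% for cluster 4, 0% to 31.8% for cluster 21 and 5.09% to 14.7% for cluster 22. Without litter 2 they were 28.7%, 17.1% and 9.18%, and PN-like clusters 6 (13.2%) and 1 (10.1%) then came before cluster 22. Clusters 4 and 21 were named caudal Lhx2/Lhx9 neuron-like from their markers, and the leading genes of both include Hox genes of caudal position. Pou4f2 was distributed otherwise, with 45.4%, 25.5% and 11.6% of its UMIs in clusters 3, 6 and 1, which are all PN-like (47.5%, 25.9% and 13.7% without litter 2). By library these shares ran from 27.0% to 58.8%, 16.2% to 28.3% and 0.386% to 17.2%, each lowest in mutant replicate 2.

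Cluster 21 had the highest Pou4f1 of the control libraries, at 280.4, 328.5 and 224.0 CPM. Cluster 22 followed at 97.3, 295.7 and 200.4 CPM and cluster 4 at 165.7, 139.3 and 133.4 CPM. These 3 were not separate from their neighbours in that order beyond the spread, but the lowest of them was above the 46.9 to 56.4 CPM of PN-like cluster 6. In mutants cluster 4 was at 160.0, 215.7 and 152.8 CPM (log2 change 0.23, SE 0.14, adjusted p = 1.0, edgeR, and 0.051 without litter 2) and cluster 21 at 259.6 and 226.4 CPM, with no cell from mutant replicate 2 (-0.23, SE 0.17, and -0.070 without litter 2). Cluster 22 was at 166.8, 321.2 and 163.2 CPM in mutants (0.10, SE 0.37).

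In cluster 22 all 3 members were present in the summed counts of every control library. Over both genotypes, 238, 129 and 63 of its 602 cells had a UMI of Pou4f1, Pou4f2 and Pou4f3. Whether these were the same cells was not examined. Beside Pou4f1, its control libraries had Pou4f2 at 13.0, 38.0 and 39.7 CPM and Pou4f3 at 9.59, 35.7 and 36.0 CPM. Its leading genes also included the transcription factor genes Neurog2 and Tfap2d. For Pou4f3 the other source was cluster 10, led by Olig2, Zmat4 and Foxp1, at 6.19, 10.0 and 31.8 CPM in controls and 8.23, 8.39 and 11.8 CPM in mutants. Together clusters 10 (53.2%, and 55.7% without litter 2) and 22 (32.2% and 31.3%) gave most E14.5 Pou4f3 UMIs, 707 in all. By library cluster 10 gave 17.9% to 73.4% and cluster 22 gave 20.2% to 52.6%. Cluster 22 was ahead in control 1 and mutant 1 and, narrowly, in control 2 (46.3% against 45.6%). The cluster 10 difference of -0.87 (SE 0.54, adjusted p = 1.0, edgeR) became 0.13 without control replicate 3. Of the 11 hair cell markers, Gfi1 and Chrna9 were at 0.0 CPM in clusters 10 and 22, and both were also near 0 over all E14.5 cells (0.029 and 0.0046 CPM). Others were present, with Myo6 at 16.2, Pcdh15 at 25.1 and Myo7a at 4.80 CPM in cluster 10, and at 11.0, 4.15 and 2.98 CPM in cluster 22, beside 21.2, 16.04 and 4.60 CPM over all E14.5 cells. The remaining 6 were at most at 0.852 CPM in either cluster.

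Among the 26 E14.5 clusters outside the PN lineage, Pou4f1 could be tested in 15, with 7 higher and 8 lower in mutants, Pou4f2 in 7 and Pou4f3 in 2. A gene low in 1 genotype can pass the count filter through the other, so no result is read from these directions. No member was called in any cluster, while 1 of the Pou4f1 and 4 of the Pou4f2 tests had an unadjusted p under 0.05. Of all genes tested, 1.17% were under it in cluster 5 and 4.35%, 2.1%, 3.06% and 2.48% in clusters 0, 14, 18 and 21, which hold these tests. The Pou4f1 test was in cluster 5, rostral neuron-like cells, at 18.55, 5.37 and 3.93 CPM in controls and 2.48, 2.62 and 1.18 CPM in mutants, which did not overlap (5.98% of genes). The log2 change was -1.94 (SE 0.62, adjusted p = 1.0) and with the litter as a block -1.73 (SE 0.36, adjusted p = 0.0988, edgeR), and the highest control rests on 32 UMIs from 5 cells. The 26 comparisons called at most 1 gene each (0.0% in 24 of them, 0.00829% in cluster 7 and 0.0326% in cluster 27). The Pou4f2 tests under 0.05 were in clusters 0, 14, 18 and 21, with log2 changes of -1.34, 1.64, -1.36 and 2.93, so their directions were mixed, and those in clusters 0, 14 and 18, like that of Pou4f1 in cluster 5, were not run without litter 2. In cluster 21 Pou4f2 was at 2.95, 0.186 and 4.01 CPM in controls and 14.6 and 10.7 CPM in mutants, and without litter 2 the change was 1.79. With no filter on low counts the cluster 21 change passed (2.92, adjusted p = 2.31e-05, edgeR), in a fit that called 64 of 18027 genes (0.355%) where the filtered fit called 0 of 10097. It rests on 2 mutant libraries and 61 Pou4f2 UMIs in all.

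**Figure D3:**
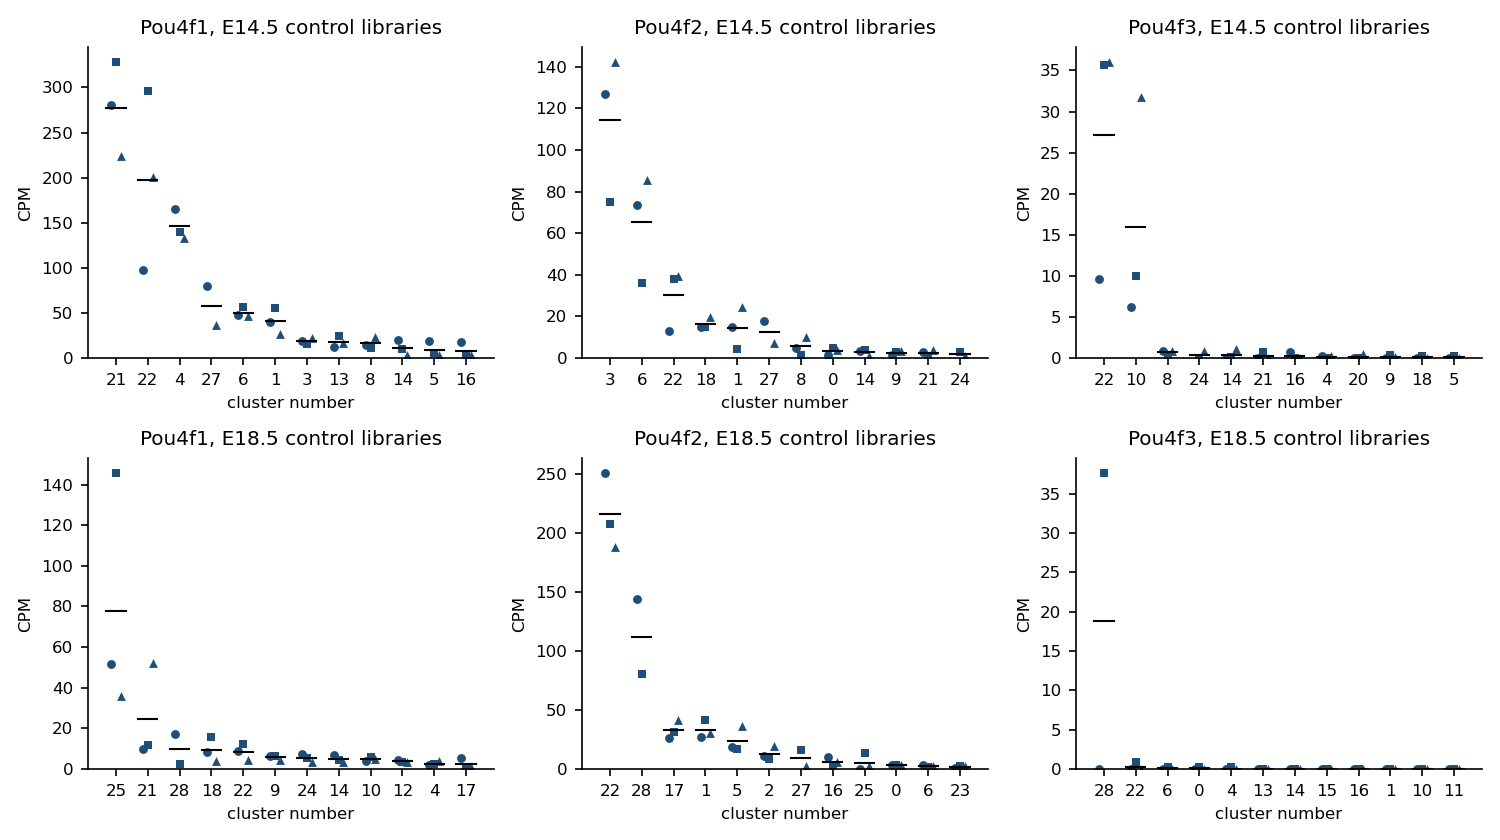
Level of each member in the 12 clusters with the highest control mean, at E14.5 (top) and E18.5 (bottom), in CPM, with 1 point per control library holding at least 10 cells, shape for replicate number and a bar at the mean. Cluster numbers of the stages are unrelated, and E14.5 cluster 27 and E18.5 cluster 25 hold shallow cells with median depths of 1998 and 2490 UMIs. Pou4f3 exceeds 1 CPM on average in clusters 22 and 10 at E14.5 and in cluster 28 at E18.5 only.

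In E18.5 controls, Pou4f2 in the PN lineage was higher in intermediate progenitors and migrating neurons than in the 3 larger differentiated subtypes. The migrating neurons (676 PN-like cells) had Pou4f2 at 160.7, 132.3 and 144.1 CPM in controls and 239.7, 214.6 and 125.7 CPM in mutants. The 3 larger differentiated subtypes were lower in controls, at 23.4, 46.8 and 34.2 CPM in ePN2 (1103 cells, with Sst and Pcp4 among its markers), 29.1, 29.3 and 42.9 CPM in ePN3 (705 cells, with Hox genes among its markers) and 12.9, 7.97 and 6.96 CPM in ePN1 (314 cells, with Kctd12 and Prox1 among its markers). ePN1 was below both of these in every control library, while ePN2 and ePN3 overlapped. ePN4, with 59 cells, had at least 10 of them in the replicate 3 libraries only, at 132.8 CPM in the control and 32.8 CPM in the mutant. Of all ePN4 cells, 31 had a Pou4f2 UMI. The 68 intermediate progenitors had 352.8 and 324.4 CPM in the control libraries with at least 10 of these cells. Pou4f1 was low in all of these states, at 6.41, 6.35 and 2.87 CPM in control migrating neurons and at most 0.459 CPM in ePN2.

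Cluster 22, PN-like cells led by Crabp1, Robo3 and Ren1, held 1.43% of the cells and 36.2% of all E18.5 Pou4f2 UMIs. By library this share ran from 13.2% to 53.6%. The other PN-like clusters, 1 and 17, gave 24.4% and 12.8% of these UMIs. Cluster 1 gave more than cluster 22 in both replicate 3 libraries, as did cluster 17 in mutant replicate 3. Control libraries of cluster 22 had 251.1, 208.1 and 188.5 CPM and its mutants 320.4, 303.6 and 244.3 CPM. The lowest mutant was inside the control range, while each mutant was above its littermate. The log2 change was 0.45 (SE 0.13, unadjusted p = 0.00244, adjusted p = 0.766, edgeR), in a comparison that called 0 of 9099 genes (0.0%) with 365 under an unadjusted 0.05. With the litter as a block it was 0.42 (SE 0.098, unadjusted p = 0.000363, adjusted p = 0.183, edgeR), which did not pass. Thinned shares of Pou4f2-positive cells were 59.8%, 51.2% and 48.1% in controls and 65.7%, 74.4% and 65.4% in mutants (exact two-sided permutation p = 0.1). Before thinning the shares were 89.0%, 75.9% and 82.1% against 88.8%, 81.8% and 88.5%, which overlap. In the glia-led cluster 26 at most 1.89% of thinned cells had a Pou4f2 UMI.

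Pou4f1 was higher in the mutants in several E18.5 clusters outside the PN lineage, and 2 of them passed the test. In cluster 9, led by Mgarp, Hes5 and Barx2, Pou4f1 was at 6.498, 6.58 and 4.31 CPM in controls and 19.5, 19.6 and 27.6 CPM in mutants. In cluster 14, led by Mgarp, Neurod4 and the replication genes Lig1 and Pclaf, it was at 6.72, 4.33 and 3.72 CPM in controls and 19.3, 19.0 and 19.3 CPM in mutants. Every mutant library was above every control library in both clusters, where 10.4% and 9.82% of genes did not overlap. The fold was 3.57 in cluster 9 (log2 change 1.84, SE 0.22, adjusted p = 0.00099) and 3.80 in cluster 14 (1.93, SE 0.21, adjusted p = 0.00124, edgeR quasi-likelihood test). Cluster 9 called 28 of 10932 genes (0.256%) and cluster 14 called 20 of 11107 (0.18%).

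Pou4f1 stayed past the threshold in both clusters under each alternative that was run, with log2 changes of 1.69 to 1.957 in cluster 9 and 1.78 to 2.20 in cluster 14. Thinned shares of Pou4f1-positive cells were 3.06% ± 1.30 against 9.58% ± 2.53 in cluster 9 and 2.08% ± 1.36 against 8.18% ± 0.352 in cluster 14 (SD, n = 3 each, exact two-sided permutation p = 0.1 for both). Before thinning they were 8.70%, 7.19% and 5.91% in controls and 16.3%, 17.4% and 23.4% in mutants in cluster 9. The glia-led cluster 26 had at most 1.89% of thinned cells with a Pou4f1 UMI at library median depths of 11468.0 to 16426.0 UMIs, against 10761.0 to 15836.0 in cluster 9 and 13780.0 to 21745.0 in cluster 14. That 1.89% is the highest value of any library of cluster 26. Before thinning, 2 of 308 cells of cluster 26 had a Pou4f1 UMI. The unthinned control shares of cluster 9 are above this, and its mutant shares are higher still. In cluster 14 the thinned control shares (2.08% ± 1.36) are near the 1.89%, while its mutant shares (8.18% ± 0.352) are above it. Atoh1 was at 86.7, 61.4 and 73.2 CPM in controls and 99.3, 94.2 and 95.9 CPM in mutants in cluster 9, and Barx2, one of its leading genes, was at 64.5, 47.8 and 47.7 CPM in controls and 96.9, 66.8 and 75.3 CPM in mutants. The part of Atoh1 and Barx2 in the Pou4f1 result was not tested.

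The direction was the same in 3 further clusters that passed only in some fits. In cluster 6, led by Pmaip1, Fgf8 and Tlx3, Pou4f1 was at 2.01, 1.84 and 2.95 CPM in controls and 6.71, 10.7 and 4.27 CPM in mutants (log2 change 1.70, SE 0.37, adjusted p = 0.0706, edgeR). With the litter as a block it passed (adjusted p = 0.00863), as it did with DESeq2 (adjusted p = 0.0496). In cluster 7, granule cell progenitor-like cells led by Tlx3, Fgf8 and Etv5, it was at 1.35, 0.816 and 1.94 CPM against 5.14, 3.50 and 4.56 CPM (1.65, SE 0.34, adjusted p = 0.0975, and 0.00495 with the litter as a block, edgeR). In cluster 12, led by Nts and Rassf9, it was at 4.36, 3.47 and 3.58 CPM against 6.80, 13.3 and 13.3 CPM (1.39, SE 0.31, adjusted p = 0.213). Without mutant replicate 1 the cluster 12 change was 1.77 and passed (adjusted p = 0.018, edgeR). Every mutant library was above every control library in all 3, where 12.8%, 10.7% and 9.58% of genes did not overlap. The comparisons called 0.488%, 0.268% and 0.189% of genes without the block, 2.21% and 1.75% in clusters 6 and 7 with it, and 0.506% in cluster 6 with DESeq2.

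A gene low in 1 genotype can pass the count filter through the other, so counts of directions over clusters are no result by themselves. Across the 29 E18.5 clusters fitted, Pou4f1 could be tested in 11, with 8 higher and 3 lower in mutants by log2 change. Among the lower ones, cluster 18 was at -0.24 (SE 0.55), but at 0.016 (SE 0.59) with the litter as a block. Its mean was 9.25 CPM in controls and 12.6 CPM in mutants. Of the 11 clusters, 5 had an unadjusted p under 0.05, all of them higher. These were clusters 6, 7, 9, 12 and 14, where 8.08%, 6.18%, 5.19%, 5.04% and 4.84% of all genes tested were under it. They come from the same embryos, so they are not independent of each other. Cluster 21, led by Meis2, Sst and Zfhx3, went the other way, at 10.1, 11.8 and 52.3 CPM in controls and 2.39, 5.45 and 23.2 CPM in mutants, which overlap, while each mutant was below its littermate. Its log2 change was -1.31 (SE 0.68, adjusted p = 1.0), and with the litter as a block it was -1.31 (SE 0.25, unadjusted p = 9.21e-05, adjusted p = 0.140, edgeR), which did not pass. Over all cells Pou4f1 was at 2.64, 2.66 and 3.55 CPM in controls and 4.52, 4.98 and 5.01 CPM in mutants, with no overlap (5.21% of genes), a fold of 1.63 and a log2 change of 0.70 (SE 0.16). The unadjusted p was 0.00278, and neither the adjusted p of 1.0 nor the 0.0835 with the litter as a block passed (edgeR). This comparison called 0 of 16747 genes (0.0%), with 337 under an unadjusted 0.05, 23 called by DESeq2 (0.137%) and 36 with the block (0.215%). The stage-by-genotype difference for Pou4f1 was 1.06 on the log2 scale (SE 0.35, unadjusted p = 0.012, adjusted p = 0.598, edgeR), in a test that called 0 of 18008 genes (0.0%), 1289 of them under an unadjusted 0.05, with 86 by DESeq2 (0.478%). A difference between the stages in the effect of genotype was therefore not shown.

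Pou4f2 could be tested in 8 of the 29 E18.5 clusters, with 4 higher and 4 lower in mutants, under the same filter on low counts. The 4 lower ones, clusters 0, 2, 5 and 16, are outside the PN lineage, and 2 of them passed with the litter as a block. In cluster 16 Pou4f2 was at 9.90, 2.00 and 5.97 CPM in controls and 1.40, 6.27 and 2.13 CPM in mutants, which overlap, with replicate 2 higher in the mutant (log2 change -1.11, SE 0.54, unadjusted p = 0.0594, adjusted p = 1.0, and 0.817 with the block, edgeR). In cluster 5, led by Tlx3, Nefm and Ntf3, it was at 18.6, 17.2 and 36.2 CPM in controls and 6.07, 5.35 and 16.6 CPM in mutants. In cluster 2, led by Cartpt, Dnm3 and Cplx2, it was at 11.4, 8.40 and 19.6 CPM in controls and 6.84, 6.24 and 6.85 CPM in mutants. In cluster 0, led by Nhlh1, Sept4 and Cartpt, it was at 3.59, 3.12 and 3.62 CPM in controls and 1.26, 1.43 and 1.33 CPM in mutants. No mutant overlapped a control in clusters 5, 2 and 0, where 10.3%, 8.17% and 9.39% of genes did not overlap.

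The log2 change of Pou4f2 was -1.46 in cluster 5 (SE 0.37, adjusted p = 0.691), -1.03 in cluster 2 (SE 0.28, adjusted p = 1.0) and -1.37 in cluster 0 (SE 0.34, adjusted p = 1.0, edgeR). With the litter as a block, cluster 5 (-1.45, adjusted p = 0.000881) and cluster 2 (-1.01, adjusted p = 0.0164) passed, and cluster 0 did not (adjusted p = 0.453). The comparisons without the block called 0.0% of genes in clusters 5 and 2, with 496 and 388 genes under an unadjusted 0.05, and 0.0179% in cluster 0. With it they called 0.23% in cluster 5 and 0.315% in cluster 2. In cluster 5 the change ran from -2.05 to -1.04 over the alternatives, and in cluster 2 from -1.24 to -0.58. Replicate 3 gave the highest value of its genotype in both clusters. Thinned shares of Pou4f2-positive cells were 1.98% ± 0.794 against 0.484% ± 0.192 in cluster 0, which is near the glia background of at most 1.89%, and 8.51% ± 2.72 against 3.49% ± 2.74 in cluster 5 (exact two-sided permutation p = 0.1 and 0.2).

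**Figure D4:**
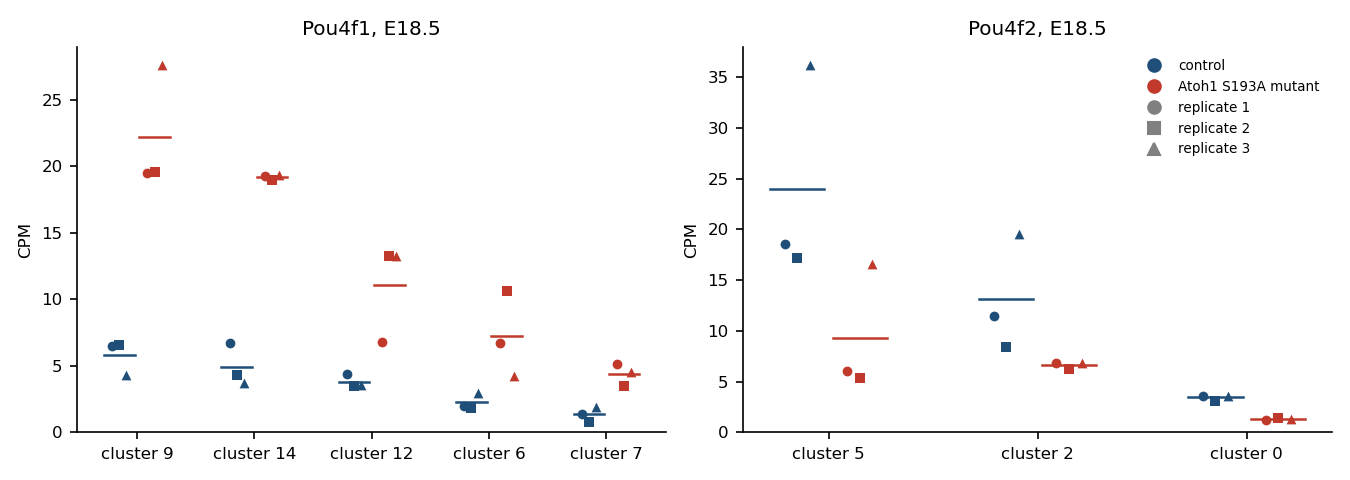
Pou4f1 in 5 and Pou4f2 in 3 E18.5 clusters, those outside the PN lineage with an unadjusted p under 0.05, in CPM, with 1 point per library, colour for genotype, shape for replicate number and a bar at each group mean. All mutant points of Pou4f1 lie above the control points in each cluster shown, and all mutant points of Pou4f2 lie below them.

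No other gene of the family's lists passed the test in clusters 9 and 14, where Pou4f1 rose. In cluster 9, 8 of 12 other POU genes, 11 of 18 partners and 15 of 30 targets were tested, with 0 called and medians of 0.12, 0.10 and -0.01. In cluster 14 the counts were 8, 12 and 17, again with 0 called, and medians of 0.13, 0.10 and 0.05. Elsewhere at E18.5 the partner Barhl1 was lower in clusters 6 (-0.43), 3 (-0.56), 4 (-0.56) and 24 (-0.87). The proneural factor Neurog2 was higher in clusters 12 (3.30) and 18 (2.65), Lhx9 was higher in cluster 18 (1.64), and Lhx2 was lower in cluster 1 (-2.02). Of the targets, the neurotrophin receptor Ntrk3 was higher in cluster 7 (1.21), Ebf1 (-1.92) and Snap25 (-0.90) were lower in cluster 24, and the neurofilament gene Nefm was lower in cluster 27 (-1.95). In cluster 0 Atoh1 (1.49) and Pou3f4 (1.18) were higher. All of these passed the edgeR test over all genes of their cluster. Over the 29 clusters, 1 of 201 tests of other POU genes (0.498%), 9 of 250 of partners (3.60%) and 4 of 460 of targets (0.870%) were called, beside 385 of 285661 tests of all genes (0.135%). A gene counts once per cluster here, Barhl1 making up 4 of the 9, and in cluster 24, where 3 of the calls lie, 78 of 7718 genes were called (1.01%). Nothing particular to the lists is read from these counts.

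Other E18.5 sources of the members were clusters 21 and 28. Cluster 21 held 1.43% of the cells and gave 213 of 1937 Pou4f1 UMIs (11.0%), from 0.887% to 44.0% by library, with 133 of them from 13 cells of control replicate 3. Cluster 28, rostral neuron-like cells led by Tcf7l2 and Zfhx3, had Pou4f2 at 143.7 and 80.6 CPM in control replicates 1 and 2, with no cell from control replicate 3, and at 173.2, 114.2 and 108.3 CPM in mutants. Its Pou4f3 was at 0 and 37.6 CPM in those controls and at 4.56, 28.6 and 12.3 CPM in mutants. Cluster 21 had no Pou4f3 UMI in controls and 10.5, 18.2 and 1.13 CPM in mutants. Clusters 28 and 21 gave 28 and 34 of the 71 Pou4f3 UMIs at E18.5, which came from 22 cells in all. Pou4f3 in cluster 21 was therefore not tested.

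At P5 Pou4f2 was still found across the PN neuron clusters. It was at 13.6 and 16.3 CPM in cluster 0 (led by Gad2, Nrgn and Cdkn1c), 14.03 and 15.9 CPM in cluster 2 (Pnoc, Sst and Col11a1) and 15.2 and 16.4 CPM in cluster 8 (Dmkn, Igf1 and Etv1). Cluster 1 (Hoxb5, Hoxa5 and Hoxc4) had 10.4 and 9.81 CPM and cluster 4 (Sostdc1, Sst and Pcp4) 11.7 and 9.06 CPM. Cluster 3, led by Prox1, Gstm1 and Htr2c, was lowest of these neuron clusters, at 4.54 and 3.29 CPM.

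The microglia-like cluster 7 had 1.37 and 0.377 CPM of Pou4f2 at P5, and the glia-like cluster 9 had 1.13 and 0 CPM. Thinned to 5000 UMIs, 7.23% (89 of 1231 cells) and 8.39% (72 of 858) of cluster 0 cells had a Pou4f2 UMI, against 0.756% and 0% of microglia-like cells. Cluster 0 had 23647.0 and 27804.0 and cluster 7 had 10564.0 and 10835.0 median UMIs before thinning. Unthinned, the shares were 25.6% and 31.4% in cluster 0 against 1.45% and 0.426%. Pou4f1 at P5 came mostly from clusters 14, 17 and 13, with 53, 42 and 18 of 146 UMIs. Cluster 14, led by Ccnd2 and histone genes and with 292 of its 297 cells from the second library, had 12.3 CPM there, and cluster 17, led by the myelin genes Mag and Cldn11, had 7.21 and 6.91 CPM.

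Across clusters, each member had its own company. Pearson's r of log2(CPM + 1) over the 30 E14.5 clusters was 0.56 between Pou4f1 and Pou4f2, 0.28 between Pou4f1 and Pou4f3 and 0.17 between Pou4f2 and Pou4f3. Over the 29 E18.5 clusters it was 0.03, 0.21 and 0.48. These values describe clusters that share libraries, and no test was made. The genes most like Pou4f1 at E14.5 were D130079A08Rik (0.87), Hoxc6 (0.76), Lhx1 (0.76), Prrxl1 (0.75) and Smug1 (0.75), and Prrxl1 and Lhx1 are transcription factors of dorsal interneurons. The genes most like Pou4f2 were A430106G13Rik (0.79), Fbxo32 (0.78), Setbp1 (0.77), Barhl1 (0.77) and Zrsr1 (0.76). Those most like Pou4f3 were Nr2e1 (0.73), Neurog1 (0.71), Irx6 (0.69), Tfap2d (0.64) and Otor (0.64), all highest in cluster 22.

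At E18.5 the lists were different. Sdk2 (0.76), Igsf9 (0.73), Gas2 (0.72), Baiap3 (0.72) and D930028M14Rik (0.69) were most like Pou4f1, and Sdk2, Gas2 and Baiap3 were highest in the shallow cluster 25. Scx (0.73), Tox (0.72), Dusp18 (0.71), Sobp (0.70) and Gna11 (0.70) were most like Pou4f2, of which Sobp is a marker of E18.5 migrating PN neurons. Hapln1 (0.98), Tfap2d (0.81), Soat2 (0.80), Gda (0.79) and Rarres1 (0.78) were most like Pou4f3, a likeness that rests on 14 control UMIs of Pou4f3 in cluster 28. Tfap2d was near Pou4f3 at both stages.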

How the data were processed

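Counts were deposited by the authors as UMI matrices made with Cell Ranger on mm10 (version 3.1.0 for E14.5 controls 1 and 2 and 5.0.1 for the other 12 libraries, per the file headers). Cells with at least 1000 genes and under 5% mitochondrial UMIs were kept, and the 7.5% with the highest Scrublet doublet score in each library were removed. Cells were clustered per stage (scanpy 1.11.5, 2000 variable genes without the Pou4f genes, 30 components, 20 neighbours, leidenalg 0.10.2 at resolution 1.0). Clusters were named from marker lists by mean z score, with at least 1 list gene among the 10 leading genes. PN-like cells were clustered again and named by mean z score alone where no other list had more of the leading genes. The members and all lists were chosen with earlier results of these data known, and the marker lists of PN states come partly from the study of these samples.

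UMIs were summed per library and population (at least 10 cells) and tested with edgeR 4.0.16 (TMM, filterByExpr, quasi-likelihood), adjusted over all genes tested, and a call needed an adjusted p under 0.05 and an absolute log2 change over 0.25. The filter keeps a gene that reaches its count cutoff in enough libraries of either genotype, so a member low in 1 genotype can be tested through the other. DESeq2 1.42.0, other filters, thresholds, clusterings and left-out libraries were alternatives, and leaving out litter 2, leaving out subclusters without a leading list gene and the fit over clusters 22 and 0 were chosen after seeing the data. The scripts were tested on simulated counts. The 3 members were named in every comparison, with the 5 genes of highest r per member and stage and up to 4 called genes per list and comparison, and some of these are not reported here. The study took each mutant embryo with a littermate control. Deviations of same-numbered embryos from the group means correlated (r = 0.43, 0.62 and 0.57 at E14.5, 0.45, 0.41 and 0.73 at E18.5), so the number was taken to pair littermates. Such a pair may also share its processing, which cannot be told apart from litter. At E18.5 the unmatched embryos of replicates 1 and 2 also correlated, though less (r = 0.24 and 0.17). Replicate 3 stood apart from both there (r from -0.51 to -0.44). Of 7972 to 15821 deposited barcodes per library, 3248 to 8726 were kept, and shares carry counting error as well as the spread between embryos.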

Additional observations from a re-analysis of the deposited data

Results flagged for a closer look

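The genotype difference of Pou4f2 at E18.5 had opposite signs in a pair of clusters. In the PN-like cluster 22 Pou4f2 was at 216 ± 32.0 CPM in controls and 289 ± 40.0 CPM in mutants, and in cluster 0, led by Nhlh1, Sept4 and Cartpt, it was at 3.44 ± 0.281 and 1.34 ± 0.0837 CPM (SD, n = 3 each). In 1 fit over both clusters, with the library as a term, the log2 changes differed by 1.78 (SE 0.35, adjusted p = 0.0381, edgeR), and 9 of 11218 genes passed that test. The pair of clusters was chosen for its opposite signs after the values were seen, so the test restates that choice and is not independent evidence. The like pair at E14.5, clusters 14 and 18, differed by 3.01 (SE 0.59, adjusted p = 1.0, edgeR, 0 of 11575 genes called), and the values of cluster 0 rest on 5 to 14 cells with a Pou4f2 UMI per library.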

How the results depend on the processing

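Member results were run under alternative settings, and the count covers all cells, the E14.5 PN states and some clusters. These were clusters 4, 10, 21 and 22 at E14.5 and 0, 2, 5, 6, 7, 9, 12, 14 and 22 at E18.5. Those at E18.5 are the ones where a member had an unadjusted p under 0.05 (edgeR). Of these alternatives, 402 kept the direction and side of the threshold, 29 reversed, 16 came past it and 2 fell back. At E14.5, using Cell Ranger 5.0.1 libraries only, which leaves control 3 alone against the 3 mutants and assumes that it varies as they do, so that version and sample number change together, the log2 change became 0.30 for Pou4f1 over all cells, 0.30 for Pou4f1 in differentiated neurons and -0.16 for Pou4f2 there. Without both libraries of litter 2, Pou4f2 became 0.0046 in migrating neurons-1 and 0.18 in migrating neurons-2, Pou4f3 in cluster 22 became 0.26, and the stage difference of Pou4f2 became -0.81. With doublets kept Pou4f2 in migrating neurons-2 was 0.0069, and with the replicate block Pou4f2 in cluster 22 was 0.042. The replicate block, which pairs littermates, changed no member call other than those named in the report. With no filter Pou4f2 in intermediate progenitors was -1.03 and passed, and with DESeq2 the stage difference of Pou4f3 was -3.99. The causes were not tested.

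Leaving out 1 library at a time, the E14.5 all-cell change ran from -0.63 to 0.082 for Pou4f2 and from -0.59 to 0.018 for Pou4f1. Pou4f2 ran from -0.47 to 0.27 in migrating neurons-1, -0.97 to 0.58 in migrating neurons-2, and -0.015 to 1.14 in differentiated neurons, where Pou4f1 ran from -0.42 to 0.0038. In cluster 10 Pou4f3 ran from -1.18 to 0.13. In cluster 22 Pou4f2 ran from -0.36 to 0.20, Pou4f1 from -0.25 to 0.49 and Pou4f3 from -0.70 to 0.016. At E18.5 Pou4f2 over all cells ran from -0.26 to 0.037 and Pou4f1 in cluster 22 from -0.13 to 0.66. The stage difference ran from -0.81 to -0.28 for Pou4f2 and from -9.93 to -3.46 for Pou4f3, and the stage-by-genotype difference of Pou4f2 from -0.24 to 0.48. The -9.93 leaves out E18.5 control 2, the other 2 being at 0 UMIs, so it is set by the fit and is no measured size. The other 5 values lie from -4.55 to -3.46.

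Counts of called genes moved more. At E14.5 over all cells (0) they were 531 with DESeq2, 1 with no filter, 1 with genes in at least 10% of cells, 2443 with the replicate block, 6 with a mitochondrial limit of 10%, and 0 to 1 leaving out a library. In progenitors (1) they were 17, 96 with no filter, 67 with the block, 2 at resolution 2.0, and 1 to 11 leaving out a library. In intermediate progenitors (5) they were 23, 148, 75, 0 with Cell Ranger 5.0.1 only, 18 without litter 2, and 1 to 41. In migrating neurons-1 (0) they were 15, 30, 36, 5 without litter 2, and 0 to 2. In migrating neurons-2 (0) they were 3, 35, 10, 4 without litter 2, 1 at resolution 2.0, and 0 to 6. In differentiated neurons (0) they were 1 with no filter, 2 with the block, 1 without litter 2, 1 with the mitochondrial limit, and 0 to 1. At E18.5 over all cells (0) they were 23 with DESeq2 and 36 with the block, the stage difference (7873) called 5181 with Cell Ranger 5.0.1 only, which sets 1 E14.5 control against 3 at E18.5, and the stage-by-genotype test (0) called 86 with DESeq2.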
